A study of Homo sapiens with 18 samples.

Results

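The 47 genes described here make the proteins that transcribe ribosomal RNA and build ribosomes in the nucleolus. They were chosen as rows of a gene count table whose Ensembl identifier maps to a list of 47 symbols, and 47 of 47 were found among 18670 genes. The list was drawn up with earlier results of these data known. By role, 9 genes encode RNA polymerase I (Pol I) subunits and factors, 5 encode nucleolar scaffold and regulator proteins and 9 encode parts of small nucleolar ribonucleoproteins (snoRNPs). Another 11 act in assembly of the small ribosomal subunit and 13 in assembly of the large subunit.

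Pol I transcribes a long ribosomal RNA precursor from repeated genes, and the factors UBTF, RRN3 and the SL1 complex bring it to their promoter. The precursor is modified by snoRNPs, cut and folded inside early assembly particles, and then split into the paths of the small and the large subunit. Many genes of this pathway are textbook targets of the transcription factor MYC, and fast-growing leukemia cells express them at a high level.

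RNA sequencing covered 18 libraries of the human lines U937 and THP-1, both labelled as acute myeloid leukemia. U937 cells carried an empty vector (3 libraries, genotype labelled WT) or shS100A9, a knockdown of the calcium-binding protein gene S100A9 (3 libraries). THP-1 cells carried an empty vector or an S100A9 overexpression vector (OES100A9 in the titles), each without drug and with Adavivint, 3 libraries a group. Adavivint, a small molecule known to inhibit CLK2 and DYRK1A kinase activity, was given at 1 µM over 36 hours. All 6 groups share lentiviral transduction and selection in 2 µg/mL puromycin, which began 48 hours after transduction and lasted at least 24 hours. The labels do not say whether untreated cells received a solvent, nor whether a vector line was a pool or a clone.

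The sum of counts per library lay between 38433169 and 84409062. Levels are given in CPM, counts scaled to library totals adjusted by edgeR's TMM factors. S100A9 followed the labels: it averaged 6.14 ± 1.44 CPM (SD, n = 3) in U937 with empty vector and 0.225 ± 0.170 with shS100A9. In THP-1 it averaged 6.38 ± 2.79 CPM with empty vector and 28.1 ± 1.57 with overexpression. Under the drug the THP-1 averages were 13.9 ± 1.13 and 107 ± 5.15 CPM. Of 12 monocytic line markers, 11 in the U937 groups and 12 in the THP-1 groups reached 1 CPM. Summed erythroid and platelet, stromal and epithelial markers stayed at or below 0.960, 1.42 and 5.1 CPM in every library. Summed lymphoid markers ran from 45.7 to 134 CPM over all libraries. In THP-1 empty vector cells NKG7, a granule gene, made up most (75.0 ± 7.25 CPM without and 32.1 ± 1.16 CPM with the drug). Of 5 lymphoid markers tested there, 2 fell with the drug and 1 rose, by 7.78 on the log2 scale. The shares of all genes tested that fell and rose were 41.1% and 44.2%. In U937, empty vector library 2 and shS100A9 library 3 stood apart: chi-square per degree of freedom against their own replicates was 135 or more, beside 8.05 and 13.1 for the other pair of each group. Those libraries touch every U937 result below. Separate cultures are not stated for the replicates, and p-values then reflect only how these samples spread, which can be technical. In bulk RNA, fewer cells of a type and less RNA per cell cannot be told apart.

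Before any comparison, the 47 genes covered a wide range of levels. Per kilobase of exon (union of exons in GENCODE 29), NPM1, the nucleolar histone chaperone nucleophosmin, was the most abundant member in untreated THP-1 empty vector cells at 398 ± 25.6 CPM per kb (SD, n = 3). Nucleolin (NCL), which binds the ribosomal RNA precursor, followed at 204 ± 24.9 CPM per kb. FBL, the snoRNP methyltransferase fibrillarin, and NOP10, a small protein of the pseudouridine-forming snoRNPs, stood next at 156 ± 15.0 and 148 ± 16.3 CPM per kb, and did not differ beyond their spread. At the low end were UTP20, UTP15 and the helicase gene DDX10, at 6.36 ± 1.36, 5.08 ± 0.909 and 5.00 ± 0.660 CPM per kb, also within each other's spread. The Pol I catalytic subunit gene POLR1A stood low at 10.6 ± 1.84 CPM per kb. Its exon union of 13519 bases is the longest of the 47, and undivided its level was 144 ± 24.9 CPM. Ranks per kilobase depend on the annotated exons, and which transcripts were expressed was not measured. Under Adavivint, in empty vector cells, NOP10 reached 275 ± 4.78 CPM per kb, below NPM1 at 309 ± 10.4 and above NCL at 79.6 ± 1.29. In overexpressing cells with the drug NOP10 and NPM1 stood at 311 ± 18.5 and 291 ± 9.93 CPM per kb, and did not differ beyond their spread.

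**Figure D1:**
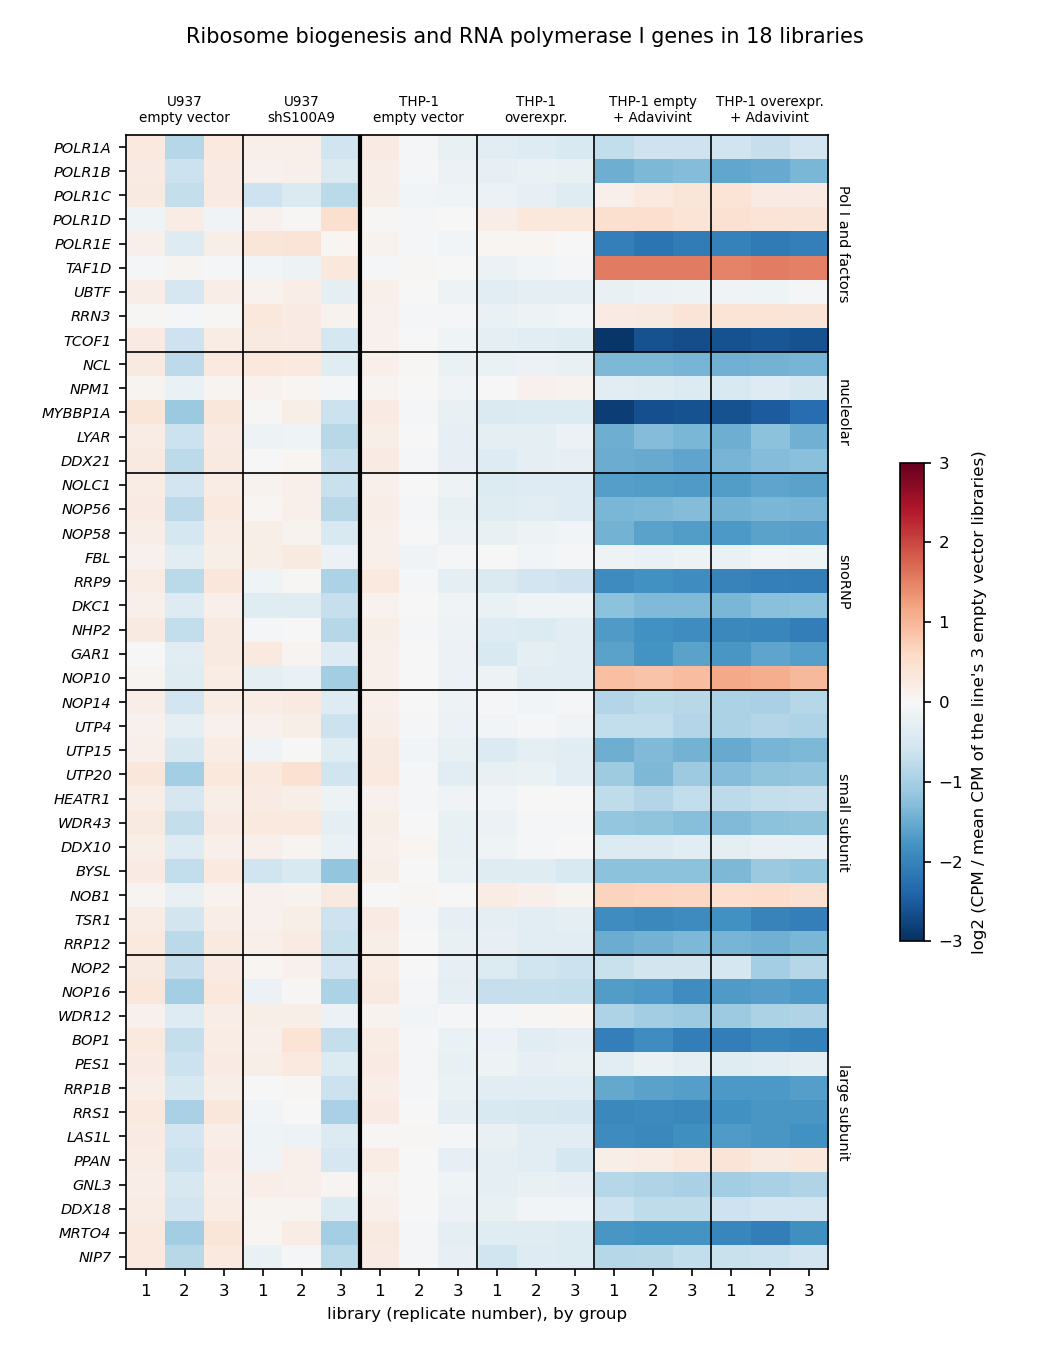
Colour shows log2 of each library's CPM over the mean of the 3 empty vector libraries of its line, for 47 genes in rows grouped by role and 18 libraries in columns grouped by cell line, vector and drug. Blue covers most rows of the 6 Adavivint libraries, with TAF1D and NOP10 in red, and U937 empty vector library 2 and shS100A9 library 3 are paler or bluer than their replicates in most rows.

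Most of the pathway fell with Adavivint in THP-1 empty vector cells. Of the 47 genes, 40 fell and 7 rose, where 41.1% of all 15403 genes tested fell, 44.2% rose and 85.3% thus changed. The median log2 fold change was -1.23 over the 47 genes and 0.06 over all genes tested. At least 2-fold falls were seen in 27 of the 47 genes, and in 21.7% of all genes tested. The drug libraries lay wholly below the untreated ones for 39 members and wholly above for 5, against backgrounds of 41.1% and 44.1%. The 47 genes together took 0.778 to 0.936% of all counts in the 6 untreated THP-1 libraries and 0.485 to 0.518% in the 6 drug libraries.

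**Figure D2:**
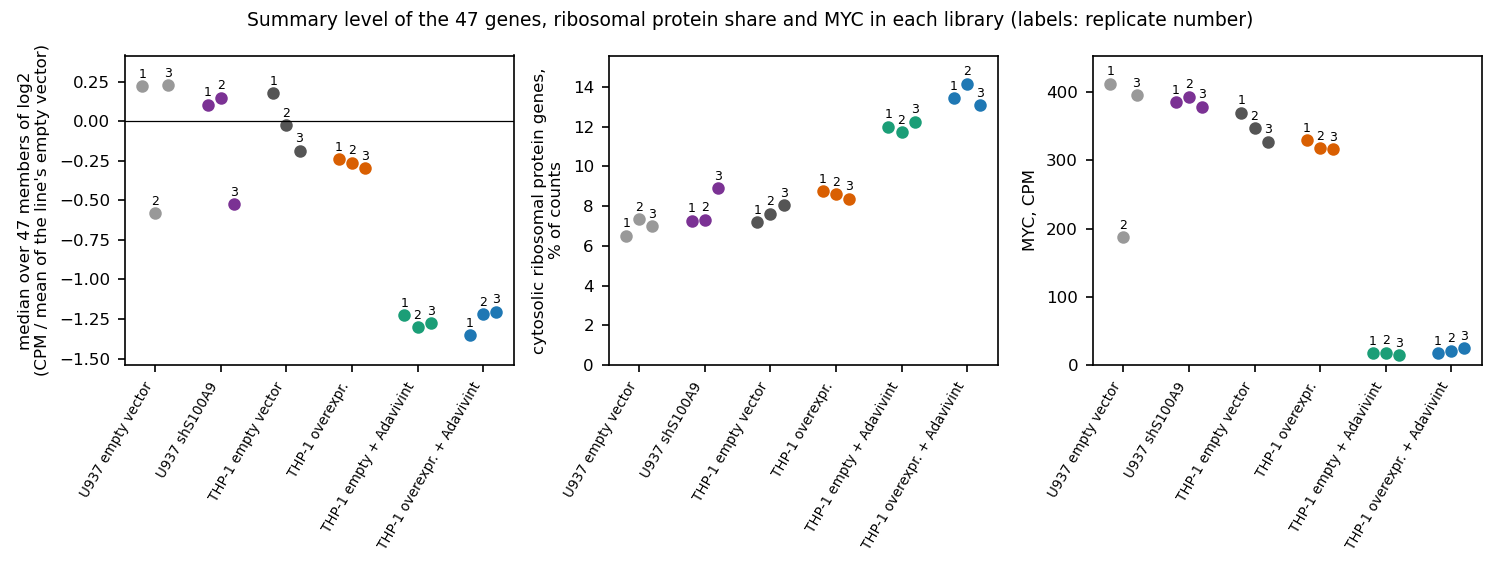
Each point is 1 library (labelled by replicate number), by group: left, the median over 47 genes of log2 of CPM over the line's empty vector mean, middle, the share of counts in cytosolic ribosomal protein genes in percent, right, MYC in CPM. The 6 Adavivint libraries lie lowest in the left and right panels and highest in the middle panel, from 11.7 to 14.2%.

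Among the Pol I genes the response went both ways, with 5 of 9 lower and 4 higher. These shares were 55.6% and 44.4%, beside 41.1% and 44.2% over all genes tested, and the median log2 fold change was -0.18. TCOF1 encodes treacle, a nucleolar protein that works with UBTF on the ribosomal RNA genes, and lies at chr5:150357629-150400308 of GRCh38 (GENCODE 29, plus strand). Its level was 142, 128 and 118 CPM in the 3 untreated libraries and 17.2, 21.1 and 20.5 CPM with the drug. The groups did not overlap, and the 6.59-fold fall was the largest of the 47 (log2 fold change -2.72, SE 0.0802, edgeR adjusted p = 9.77e-13). POLR1E, a subunit particular to Pol I, measured 60.5, 54.6 and 52.5 CPM untreated and 13.5, 12.3 and 13.1 CPM with the drug. It fell 4.30-fold (log2 fold change -2.11, SE 0.0661, edgeR adjusted p = 1.63e-12), again without overlap.

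The catalytic core genes fell by less. POLR1B, which forms the active centre with POLR1A, went from 127, 107 and 97.5 CPM to 39.8, 43.3 and 44.9 CPM (log2 fold change -1.38, SE 0.0870, edgeR adjusted p = 2.17e-09). POLR1A, the largest subunit, went from 171, 137 and 123 CPM to 86.8, 93.3 and 93.1 CPM (log2 fold change -0.66, SE 0.0925, edgeR adjusted p = 1.22e-05). UBTF, which binds along the ribosomal RNA genes and keeps them open, measured 180.0, 159 and 145 CPM untreated and 139, 143 and 145 CPM treated. Its fall was small (log2 fold change -0.18, SE 0.0629, edgeR adjusted p = 0.016): the highest treated library lay just below the lowest untreated one, and without untreated library 1 or drug library 1 the call was lost (highest edgeR adjusted p = 0.0708).

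Of the Pol I genes that rose, TAF1D moved most. It encodes a subunit of SL1, the complex that selects the ribosomal RNA promoter, and lies at chr11:93729948-93784391 on the minus strand. The level was 129.7, 136 and 136 CPM untreated and 397, 392 and 396 CPM treated, a 2.95-fold rise with tight replicates (log2 fold change 1.56, SE 0.0463, edgeR adjusted p = 1.03e-12). RRN3, which joins Pol I to its promoter, went from 77.6, 67.9 and 68.1 to 84.6, 85.5 and 92.5 CPM (log2 fold change 0.30, SE 0.0588, edgeR adjusted p = 0.000306). POLR1C and POLR1D, which Pol I shares with RNA polymerase III, also rose. POLR1D went from 99.0, 93.9 and 98.7 to 136, 138 and 129 CPM (log2 fold change 0.47, SE 0.0470, edgeR adjusted p = 3.67e-07), and POLR1C from 54.5, 45.7 and 44.0 to 53.4, 58.6 and 62.2 CPM (log2 fold change 0.27, SE 0.0869, edgeR adjusted p = 0.0097), where 1 treated library lay below the highest untreated one.

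TAF1D hosts 8 small nucleolar RNA genes in GENCODE 29, which is not particular to it. GNL3 hosts 6, NOP56 5, NOP58 4, NCL and WDR43 3 each, and DKC1 and TSR1 2 each, and these members fell. PPAN with 2 and POLR1C with 1 rose. TAF1D also shares exon bases with genes on the opposite strand, among them CEP295, MED17 and C11orf54. How the counting treated strand was not given in the sources used here, so reads of such pairs cannot be told apart. With the drug in empty vector cells, CEP295 changed by 1.54 and MED17 by 1.12 on the log2 scale, beside 1.56 for TAF1D, while C11orf54 gave 0.12 and did not pass the test. For POLR1C the opposite-strand neighbour XPO5 changed by -1.13, against the direction of POLR1C. In all, 17 of the 47 genes share exon bases with another counted gene.

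**Figure D3:**
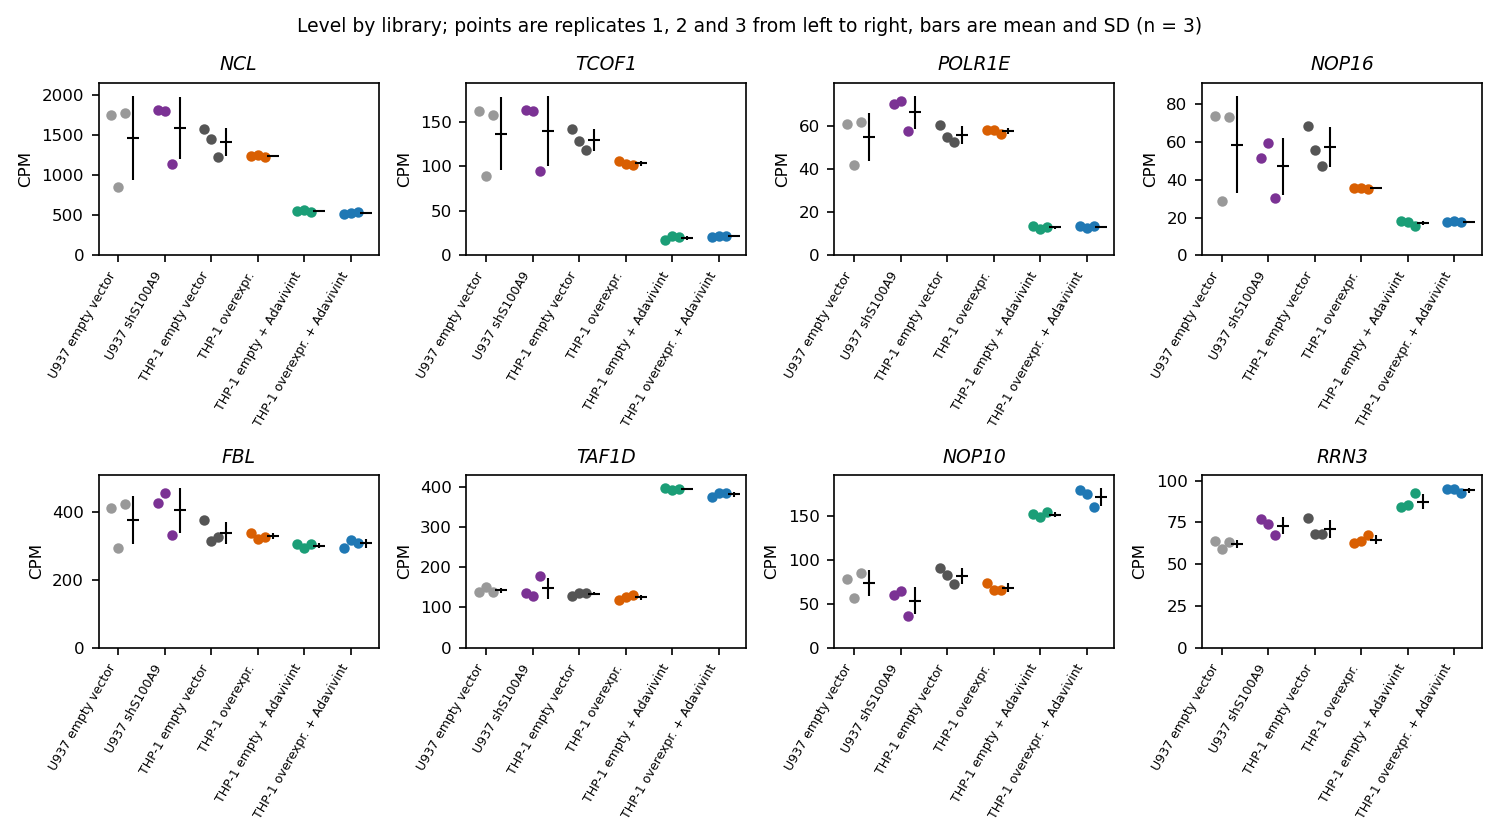
CPM by library for 8 of the 47 genes, with points for replicates 1, 2 and 3 from left to right in each of 6 groups and bars for the mean and SD (n = 3). NCL, TCOF1, POLR1E and NOP16 sit lowest in both Adavivint groups, FBL is nearly level across THP-1 groups, and TAF1D, NOP10 and RRN3 sit highest with the drug.

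All 5 nucleolar scaffold and regulator genes fell. MYBBP1A, a nucleolar protein that binds MYB and acts in ribosomal RNA transcription and processing, went from 107, 87.6 and 77.3 CPM to 12.8, 14.5 and 14.8 CPM. That was a 6.46-fold fall (log2 fold change -2.69, SE 0.114, edgeR adjusted p = 2.93e-11), next after TCOF1. NCL measured 1568, 1446 and 1227 CPM untreated and 556, 558 and 542 CPM treated, with no overlap (log2 fold change -1.36, SE 0.0684, edgeR adjusted p = 1.81e-10). The helicase DDX21 and the nucleolar regulator LYAR changed by -1.53 and -1.38 on the log2 scale. NPM1 fell least of the 5, from 1614, 1535 and 1419 CPM to 1223, 1187 and 1143 CPM (log2 fold change -0.36, SE 0.0546, edgeR adjusted p = 2.42e-05).

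Of the 9 snoRNP genes, 8 fell and NOP10 rose. NOLC1, a chaperone that carries snoRNPs through the nucleolus, went from 483, 432 and 394 CPM to 138, 136 and 135 CPM (log2 fold change -1.68, SE 0.0629, edgeR adjusted p = 8.67e-12). Of the core proteins of the methylating (box C/D) snoRNPs, NOP58 and NOP56 changed by -1.56 and -1.34 on the log2 scale. FBL, the methyltransferase of the same particle, measured 376, 314 and 327 CPM untreated and 305, 293 and 305 CPM treated. Its change was small (log2 fold change -0.17, SE 0.0605, edgeR adjusted p = 0.0177), and leaving out untreated library 1 or drug library 2 ended the call. RRP9, the protein particular to the U3 snoRNP, changed by -1.85 on the log2 scale.

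The pseudouridine-forming (box H/ACA) snoRNPs hold 4 core proteins, DKC1, NHP2, GAR1 and NOP10, and these did not move together. NHP2 went from 108, 92.7 and 85.8 CPM to 29.5, 27.0 and 26.2 CPM (log2 fold change -1.80, SE 0.0813, edgeR adjusted p = 5.85e-11). DKC1, the pseudouridine synthase dyskerin, went from 200.2, 185 and 173 CPM to 79.1, 73.9 and 74.4 CPM (log2 fold change -1.30, SE 0.0592, edgeR adjusted p = 6.37e-11), and GAR1 changed by -1.67 on the log2 scale. NOP10 went the other way, from 90.6, 82.7 and 72.5 CPM to 152, 149 and 155 CPM. Every treated library lay above every untreated one, a 1.86-fold rise (log2 fold change 0.89, SE 0.0756, edgeR adjusted p = 5.52e-08). NOP10 shares no exon bases with another counted gene in GENCODE 29.

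In small subunit assembly 10 of 11 genes fell. TSR1, a late assembly factor, fell most at -1.90 on the log2 scale, followed by RRP12 at -1.41 and UTP15 at -1.40. UTP4, UTP15, WDR43 and HEATR1 belong to the early complex that joins precursor synthesis to processing, and changed by -0.78 to -1.40. BYSL, a factor of late particles, and UTP20 and NOP14, parts of the early particle, changed by -1.23, -1.17 and -0.84. DDX10 fell least, at -0.39. The exception was NOB1, the nuclease that makes the last cut of the small subunit's RNA, with 70.8, 73.3 and 70.5 CPM untreated and 113, 112 and 111 CPM treated (log2 fold change 0.65, SE 0.0450, edgeR adjusted p = 6.24e-09). Its groups were far apart relative to their spread.

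In large subunit assembly 12 of 13 genes fell. BOP1 went from 116, 96.8 and 86.6 CPM to 24.0, 27.3 and 23.6 CPM, a fall of 4.00 times (log2 fold change -1.999, SE 0.0964, edgeR adjusted p = 1.13e-10). It forms the PeBoW complex with PES1 and WDR12, which fell by less: WDR12 changed by -1.02 and PES1 by -0.26 on the log2 scale, and the PES1 groups overlapped. LAS1L, part of the nuclease complex that cuts the spacer beside the large subunit's RNA, had 87.2, 87.2 and 82.5 CPM untreated and 23.1, 22.2 and 23.8 CPM treated. Its adjusted p was the lowest of the 47 (log2 fold change -1.89, SE 0.0553, edgeR adjusted p = 8.98e-13).

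RRS1, MRTO4, NOP16 and RRP1B, all assembly factors of large subunit precursors, fell by 3.79, 3.43, 3.37 and 3.02 times. GNL3 (nucleostemin), NIP7, the helicase DDX18 and the RNA methyltransferase NOP2 fell by less, with log2 fold changes between -0.91 and -0.59. PPAN rose, from 69.6, 59.3 and 50.6 CPM to 67.3, 69.4 and 74.7 CPM, with overlapping groups (log2 fold change 0.24, SE 0.0974, edgeR adjusted p = 0.0366), and it was called in 2 of the 6 fits without a library of these groups. PPAN shares exons on the same strand with P2RY11 and with the joined locus PPAN-P2RY11, which gave log2 fold changes of 1.37 (passed) and 0.67 (not passed).

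MYC, listed beside the members as an anchor, fell from 369, 347 and 327 CPM to 17.2, 18.3 and 14.9 CPM in the same libraries. The members' promoters were searched for CACGTG, the canonical E-box that MYC and its partner MAX are known to bind. The letters read the same on both strands. Promoters were windows from 250 bases before to 50 bases after the start of transcription in RefSeq (GRCh38.p14), with an entry for 38 of the 47 genes. The motif was in 16 of 38 (42.1%), in 12.1% of the 12133 genes tested in THP-1 that have an entry and in 7.26% of all 35116 promoter windows of that length. Genes without an entry were POLR1E, TCOF1, NOLC1, NOP58, RRP12, BOP1, RRP1B, RRS1 and DDX18.

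The windows below show the motif in capitals with the bases around it, 5′ to 3′ on the gene's strand, for 5 genes that fell strongly with the drug, for FBL and PES1, which fell little, and for NOP10, which rose and holds the motif at 2 places.
MYBBP1A (chr17:4555340-4555369, minus strand): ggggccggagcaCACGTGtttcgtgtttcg
RRP9 (chr3:51941892-51941921, minus strand): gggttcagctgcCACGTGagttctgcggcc
MRTO4 (chr1:19251807-19251836, plus strand): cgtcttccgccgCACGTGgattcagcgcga
GAR1 (chr4:109815781-109815810, plus strand): gggccagaggggCACGTGgcgccggtgagt
DDX21 (chr10:68956604-68956633, plus strand): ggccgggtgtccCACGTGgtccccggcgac
FBL (chr19:39846356-39846385, minus strand): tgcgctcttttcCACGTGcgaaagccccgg
PES1 (chr22:30591880-30591909, minus strand): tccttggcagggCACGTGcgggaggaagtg
NOP10, upstream (chr15:34343289-34343318, minus strand): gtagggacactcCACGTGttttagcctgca
NOP10, near the start (chr15:34343130-34343159, minus strand): gaaattgacgaaCACGTGacgcggtcgggc
Genes that fell were found both with and without the motif, while of the genes that rose only NOP10 held it. The median log2 change with Adavivint in empty vector cells was -1.19 over the 16 genes with the motif (15 negative) and -0.80 over the 22 without it (16 negative). Genes without a promoter entry are in neither group, and whether they hold the motif is unknown. All of them fell, from -2.72 for TCOF1 to -0.73 for DDX18, and all but DDX18 fell by more than either median. The medians thus leave out several of the largest falls, and no link between motif and response was tested. A match describes these letters only, and binding was not measured here.

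Other genes of the pathway, which are not among the 47, moved the same way less evenly. Over 107 further genes of Pol I, subunit assembly, snoRNP assembly and the RNA exosome, 69 fell and 25 rose in empty vector cells, with a median log2 fold change of -0.49. RUVBL2, an ATPase of snoRNP assembly, fell from 184 ± 12.0 to 13.9 ± 0.965 CPM (log2 fold change -3.73, edgeR adjusted p = 9.11e-14), and NOC3L, of early large subunit particles, from 60.9 ± 8.67 to 7.57 ± 0.678 CPM (-3.01, edgeR adjusted p = 2.3e-11). Of 7 other Pol I genes, 3 rose, with the terminator TTF1 at 0.89, and POLR1G fell at -2.44. Subunits particular to RNA polymerase III fell in 7 of 11 genes and rose in 3 (63.6% and 27.3%). Those of RNA polymerase II fell in 3 of 7 and rose in 4 (42.9% and 57.1%). Over all genes tested 41.1% fell and 44.2% rose. The cytosolic ribosomal protein genes, the structural parts of the finished ribosome, went against the 47: 77 of 79 rose and none fell, with a median of 0.70. They took 7.20 to 8.76% of all counts in the untreated THP-1 libraries and 11.7 to 14.2% in the drug libraries. CPM are relative, so a larger share of 1 class can lower the others, and its part in the members' result was not tested.

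Most monocytic line markers changed with the drug, as did 85.3% of all genes tested (41.1% fell and 44.2% rose). Of the 12 markers 7 fell, with the surface antigen CD33 from 83.9 ± 1.13 to 22.0 ± 1.33 CPM. Another 4 rose, with LYZ (lysozyme) from 329 ± 4.45 to 678 ± 60.1 CPM. The summed level of the 12 markers was 1060 to 1083 CPM without and 1239 to 1361 CPM with the drug in empty vector cells, and all 12 were detected in both groups. LYZ alone held 329 and 678 CPM of these sums on average, so the higher sum does not describe the other markers. In overexpressing cells 7 markers fell and 3 rose, where 41.3% of all genes tested fell and 43.4% rose. The sum there was 1074 to 1090.4 CPM without and 1249.8 to 1317 CPM with the drug. The part of such a shift in the fall of the 47 genes was not tested.

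The same drug in S100A9-overexpressing cells gave a like pattern. There 35 of the 47 genes fell and 8 rose, where 41.3% of all genes tested fell and 43.4% rose (84.7% in all), and the median was -0.995 against 0.04 over all genes. At least 2-fold falls were seen in 23 members and in 22.8% of all genes tested. Of the 9 Pol I genes 4 fell and 5 rose (44.4% and 55.6%), with a median of 0.14. All 35 genes that fell here also fell in empty vector cells, and 7 genes rose in both. Drug and untreated libraries did not overlap for 37 lower members (background 42.5%) and 8 higher ones (background 45.0%).

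TCOF1 and POLR1E had the largest falls, from 106, 102 and 101 to 21.0, 21.8 and 21.3 CPM (log2 fold change -2.27, SE 0.0793, edgeR adjusted p = 4.12e-12) and from 58.2, 58.2 and 56.0 to 13.7, 12.8 and 13.5 CPM (log2 fold change -2.11, SE 0.0663, edgeR adjusted p = 1.53e-12). MYBBP1A, BOP1 and LAS1L fell 4.11-fold, 3.38-fold and 2.74-fold. NHP2 measured 73.4, 72.4 and 76.6 CPM untreated and 25.1, 24.7 and 22.8 CPM treated (log2 fold change -1.62, SE 0.0817, edgeR adjusted p = 1.79e-10), NOLC1 326, 335 and 335 and 137, 147 and 145 CPM (log2 fold change -1.22, SE 0.0623, edgeR adjusted p = 2.03e-10), and DKC1 163, 171 and 171 and 71.8, 78.2 and 79.4 CPM (log2 fold change -1.14, SE 0.0590, edgeR adjusted p = 2.34e-10). These groups were well apart. NCL, NOP56 and POLR1B changed by -1.22, -1.05 and -1.26 on the log2 scale, and NPM1 by -0.53. POLR1A fell little (log2 fold change -0.23, SE 0.0924, edgeR adjusted p = 0.0347), and it and DDX10 (log2 fold change -0.19, SE 0.0812, edgeR adjusted p = 0.0442) were called in only 2 and 1 of 6 fits without a library (highest edgeR adjusted p = 0.112 and 0.123).

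TAF1D rose from 118, 127 and 131 to 376, 385 and 385 CPM (log2 fold change 1.61, SE 0.0463, edgeR adjusted p = 7.43e-13) and NOP10 from 74.3, 65.7 and 66.0 to 181, 175 and 161 CPM (log2 fold change 1.33, SE 0.0762, edgeR adjusted p = 7.06e-10). RRN3, NOB1, PPAN and POLR1C rose by 0.54, 0.35, 0.70 and 0.56 on the log2 scale. POLR1D rose by 0.14 and lost its call without untreated or drug library 1. FBL, PES1, NOP2 and NIP7 did not pass the test, with log2 fold changes of -0.10, -0.12, -0.24 and -0.17 and standard errors of 0.0605 to 0.125. UBTF was the only member called in opposite directions, higher here (131, 135 and 132 to 151, 148 and 155 CPM, log2 fold change 0.19, SE 0.0629, edgeR adjusted p = 0.0104) and lower in empty vector cells. Across the 47 genes, the log2 changes with the drug in the 2 backgrounds had Pearson's r = 0.969 and Spearman's rho = 0.957, and across all 15403 genes r = 0.942. The comparisons share no library, and genes are not independent replicates, so these values are descriptions.

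**Figure D4:**
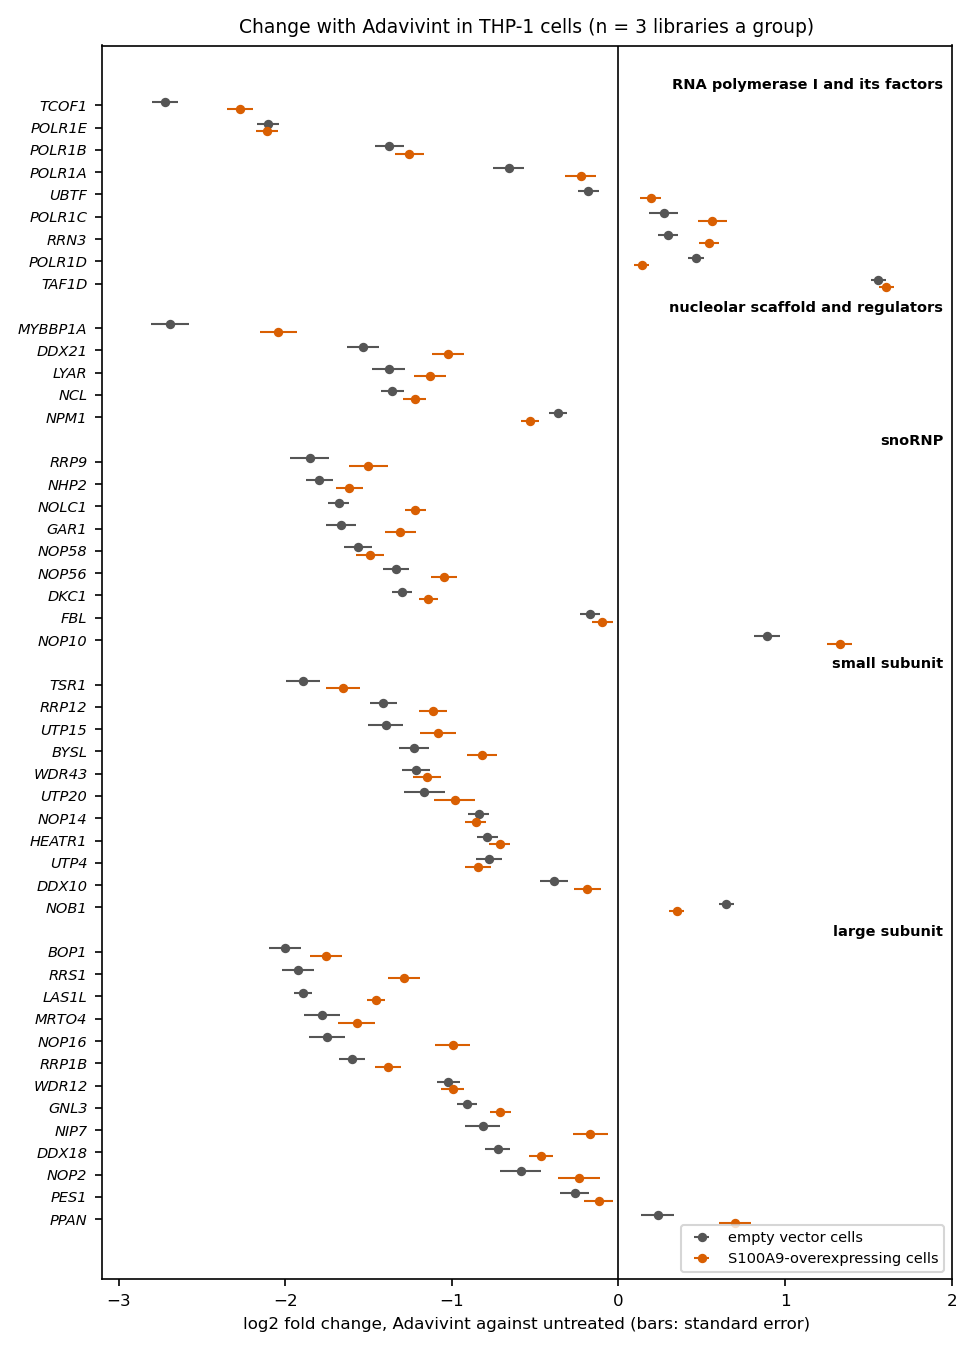
Points give the log2 fold change with Adavivint against untreated cells for 47 genes grouped by role, in empty vector (grey) and S100A9-overexpressing (orange) THP-1 cells, with standard errors as bars (n = 3 libraries a group). Most orange points lie to the right of the grey ones, while TAF1D, NOP10, RRN3, POLR1C, POLR1D, NOB1 and PPAN lie right of 0 in both.

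The sizes of the drug responses differed between the backgrounds for some members. A test of that difference (interaction) called 15 of 47 genes, 13 with a higher log2 change in overexpressing cells and 2 with a lower one, where 8.04% and 11.2% of all genes tested were called (19.3% in all). The difference was positive for 41 of 47 members, with a median of 0.24 against -0.02 over all genes. For NOP16 the drug effects were -1.75 and -0.995 (difference 0.76, SE 0.149, edgeR adjusted p = 0.0048). Its level was 57.3 ± 10.7 CPM in untreated empty vector cells and 35.4 ± 0.175 CPM in untreated overexpressing cells, and 17.0 ± 1.20 and 17.8 ± 0.400 CPM under the drug. The treated levels thus differed by 0.059 on the log2 scale and the untreated ones by -0.70. MYC, beside them, gave a difference of 0.47 (edgeR adjusted p = 0.0304). S100A9 itself rose with the drug, by 1.11 on the log2 scale with empty vector and 1.93 with overexpression. Its level was thus not constant within a background, and its part in these differences was not tested.

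LAS1L, NOLC1, RRS1 and NIP7 showed the same order of levels. LAS1L averaged 85.6 ± 2.75 and 69.7 ± 2.89 CPM untreated and 23.0 ± 0.785 and 25.4 ± 1.02 CPM treated (difference 0.44, edgeR adjusted p = 0.00262). NOLC1 averaged 437 ± 44.7 and 332 ± 5.23 CPM untreated and 136 ± 1.72 and 143 ± 5.19 CPM treated (difference 0.46, edgeR adjusted p = 0.00397). RRS1 and NIP7 differed by 0.63 and 0.65. POLR1D and NOB1 went the other way, at -0.33 and -0.30: both rose more in empty vector cells. The count of members with a higher change was 11 without untreated empty vector library 1 and 26 without library 3. Those fits called 2726 and 3724 of all genes, in either direction, beside 2968 in the main fit.

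Before the drug, S100A9 overexpression went with lower levels of much of the pathway. Of the 47 genes 27 fell and 2 rose, where 13.0% of all 15403 genes tested fell and 14.9% rose (28.0% changed), and the median log2 fold change was -0.26 against 0.02 over all genes. This comparison shares its libraries with the drug comparisons. The falls were modest: 10 of 13 large subunit genes fell, 6 of 9 snoRNP genes, 3 of 5 nucleolar genes, 4 of 9 Pol I genes and 4 of 11 small subunit genes. The nucleolar count was 1 in each fit without a library of these groups other than empty vector library 3, without which it was 4. The small subunit count was 1 without empty vector library 1 (UTP15, TSR1 and RRP12 lost), overexpression library 2 or overexpression library 3, 2 without overexpression library 1 and 6 without empty vector library 3. MYC averaged 348 ± 21.3 CPM with empty vector and 321 ± 7.05 CPM with overexpression and missed the threshold (log2 difference -0.12, edgeR adjusted p = 0.371).

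NOP16 had the largest fall. It measured 68.7, 55.8 and 47.5 CPM with empty vector and 35.5, 35.5 and 35.2 CPM with overexpression, without overlap (log2 fold change -0.70, SE 0.102, edgeR adjusted p = 0.000535). RRS1 went from 81.1, 68.3 and 57.4 CPM to 50.04, 49.4 and 48.8 CPM (log2 fold change -0.48, SE 0.0914, edgeR adjusted p = 0.00231), and RRP9 from 47.6, 37.2 and 32.1 CPM to 28.9, 26.2 and 25.2 CPM (log2 fold change -0.54, SE 0.111, edgeR adjusted p = 0.00345). In each of these the empty vector libraries spread widely while the overexpression libraries were close together. NOLC1 measured 483, 432 and 394 and 326, 335 and 335 CPM (log2 fold change -0.40, SE 0.0610, edgeR adjusted p = 0.000715), LAS1L 87.2, 87.2 and 82.5 and 72.9, 68.7 and 67.4 CPM (log2 fold change -0.30, SE 0.0522, edgeR adjusted p = 0.00146), and NHP2 108, 92.7 and 85.8 and 73.4, 72.4 and 76.6 CPM (log2 fold change -0.37, SE 0.0773, edgeR adjusted p = 0.00409).

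Among the Pol I genes, POLR1A, UBTF, TCOF1 and POLR1C fell by 1.32, 1.22, 1.25 and 1.20 times. POLR1C was called in 3 of 6 fits that left out a library (highest edgeR adjusted p = 0.165), and the other 3 genes in 6 of 6. POLR1D rose, from 99.0, 93.9 and 98.7 CPM to 112, 121 and 120.4 CPM (log2 fold change 0.28, SE 0.0469, edgeR adjusted p = 0.00119), as did NOB1, from 70.8, 73.3 and 70.5 to 83.6, 78.9 and 75.5 CPM (log2 fold change 0.15, SE 0.0449, edgeR adjusted p = 0.0255). NOB1 was called in 3 of 6 fits that left out a library, and not without empty vector library 1 or overexpression library 1 or 2. POLR1E, TAF1D, NPM1, FBL, HEATR1 and WDR12 gave log2 fold changes of 0.040, -0.10, 0.084, -0.044, -0.025 and 0.018 and did not pass the test. Libraries did not overlap for 26 lower members (background 19.0%) and 2 higher ones (background 22.3%).

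The untreated empty vector libraries also differed among themselves in these genes. Library 1 was the highest of the 3 for 44 of 47 members and library 3 the lowest for 42. The overexpression mean was at a median of 0.735 of library 1, 0.836 of library 2 and 0.948 of library 3, and below library 3 for 31 members. Without empty vector library 1, 17 members fell, all among the 27, and 1 rose. Without empty vector library 3, 35 fell, and without overexpression library 3, 17 fell. The count of all genes that changed moved too, from 4307 in the main fit to 3107, 4983 and 2910 in these fits, in that order. Of the 29 called members 18 were called in each fit that left out 1 library, among them NOP16, NOLC1, RRS1, RRP9 and LAS1L. The ribosomal protein genes again went against the members, with 40 of 79 higher and 0 lower (median 0.15), and 43 of the 107 other pathway genes fell and 6 rose.

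Under Adavivint no member differed between overexpressing and empty vector cells past the threshold. With edgeR, 0 of 47 were higher and 0 lower (background 3.69% higher, 4.80% lower, 8.50% in all), and 5 (NOB1, LAS1L, NOP10, NHP2 and DDX21) had an unadjusted p below 0.05. DESeq2 called 0 higher and 1 lower, NOB1. The median was 0.01, and log2 fold changes ran from -0.20 for NOP2 to 0.24 for MYBBP1A. MYBBP1A measured 12.8, 14.5 and 14.8 CPM with empty vector and 14.9, 16.2 and 18.6 CPM with overexpression (log2 fold change 0.24, SE 0.115, edgeR adjusted p = 0.23). NOB1 came nearest to the threshold, with 113, 112 and 111 and 102, 102 and 98.9 CPM (log2 fold change -0.15, SE 0.0449, edgeR adjusted p = 0.0578). In the same comparison 63 of 79 ribosomal protein genes rose, with a median of 0.25. Libraries did not overlap for 10 members higher (background 16.0%) and 9 lower (background 16.8%).

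S100A9 knockdown in U937 gave no called member. Of all 13016 genes tested 1.54% fell and 0.230% rose (1.77% changed), and of the 47 genes 0 fell and 0 rose by edgeR and by DESeq2. DKC1 and RRN3 had an unadjusted p below 0.05. DKC1 measured 296, 205 and 297 CPM with empty vector and 206, 208 and 165 CPM with shS100A9 (log2 fold change -0.46, SE 0.175, edgeR adjusted p = 0.299), and RRN3 63.6, 59.4 and 63.6 and 77.3, 74.3 and 67.4 CPM (log2 fold change 0.23, SE 0.0971, edgeR adjusted p = 0.348). RRN3 was the 1 member whose groups did not overlap (background 10.6% higher, 11.9% lower). The median over the members was -0.056, with 0.0096 over all genes.

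The spread in U937 came with the libraries that stood apart. Empty vector library 2 was the lowest of its group for 45 of 47 members and shS100A9 library 3 for 44. NCL, for example, measured 1753, 852 and 1775 CPM with empty vector and 1809, 1802 and 1139 CPM with shS100A9, and NOP16 73.7, 28.9 and 73.5 and 51.6, 59.7 and 30.5 CPM. The members' median ratio of library 2 to library 1 was 0.563 with empty vector, and that of library 3 to library 1 was 0.654 with shS100A9. MYC was also low in empty vector library 2 (412, 187 and 395 CPM) but not in shS100A9 library 3 (385, 393 and 378 CPM).

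Without both libraries, 2 against 2, 18 of the 47 genes fell and 3 rose, where 17.7% of 13055 genes tested fell and 15.2% rose (32.9% changed). BYSL (log2 fold change -0.78, SE 0.0648, edgeR adjusted p = 0.000185) and POLR1C (log2 fold change -0.78, SE 0.0692, edgeR adjusted p = 0.000249) had the largest falls. DKC1 and NOP10 of the H/ACA snoRNPs changed by -0.52 and -0.39 on the log2 scale, NHP2 by -0.28, and NOP16, NIP7, LYAR and LAS1L by -0.40, -0.40, -0.37 and -0.37. RRN3, POLR1E and POLR1D rose by 0.26, 0.21 and 0.20. These calls rest on 2 libraries a group.

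Between the lines, THP-1 and U937 with empty vector, 2 of the 47 genes differed and 45 did not pass the test, where 11.4% of 13695 genes tested were lower in THP-1 and 14.8% higher. LAS1L was 2.12-fold lower in THP-1 (183 ± 52.8 CPM in U937 and 86.4 ± 2.04 CPM in THP-1, n = 3 each, log2 fold change -1.09, SE 0.208, edgeR adjusted p = 0.00884). DKC1 was lower by 1.41 times (log2 fold change -0.50, SE 0.149, edgeR adjusted p = 0.0479) and was called in 1 of 6 fits that left out a library. Libraries did not overlap for 3 members lower in THP-1 (background 20.5%) and 1 higher (background 24.9%). Without U937 empty vector library 2, 30 of 47 genes were lower in THP-1 (19.7% of 13909 genes tested), LAS1L among them (log2 fold change -1.30, SE 0.0533, edgeR adjusted p = 6.33e-06). Line, vector set and any batch cannot be told apart here.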

How the data were processed

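Raw counts of reads, as the authors deposited them, fill 1 table keyed by Ensembl gene with 18 library columns, each matched to its sample by the column name in the label. HISAT2 2.0.4 is named per the submitters' processing notes. The counter, genome build, annotation and handling of strand were not given in the sources used here. Genes overlapping on either strand can therefore share reads. Symbols came from a name table for 18642 of 18670 genes, and positions from GENCODE 29 on GRCh38.

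The deposited counts were tested with edgeR 4.0.16 (quasi-likelihood F test, R 4.3.3), with TMM factors, filterByExpr and Benjamini-Hochberg adjustment over all genes tested. The threshold was 0.05. The 6 U937 libraries were fitted apart from the 12 THP-1 libraries, which shared 1 fit with contrasts for the vector, the drug in each background and the interaction, and the lines were compared over 6 empty vector libraries. A standard error is the log2 fold change over the square root of F. CPM used TMM-scaled library sizes within a line. On simulated counts with 13016 U937 genes, the test recovered 67 of 100 genes set to change 2-fold and 92 of 100 set to change 4-fold. With 15403 genes, for overexpression in THP-1, it recovered 98 and 99 of 100. Each gene was drawn independently, with no shift of a whole library as in the U937 libraries that stood apart. No change below 2-fold was simulated, so these values do not cover the smaller changes reported here.

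Alternatives were DESeq2 1.42.0, its size factors in edgeR, library totals, other filters, only the 6 libraries of a contrast, a replicate block, leaving out each library and leaving out the U937 libraries that stood apart. Same-numbered replicates did not deviate together, so the numbers were not taken as pairs. Any of the 47 genes could be named. Full values went to up to 6 higher and 6 lower genes a comparison by smallest p, to 10 fixed genes in the drug comparisons, and to up to 4 genes of each other list. Members and lists were chosen with earlier results of these data known.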

Additional observations from a re-analysis of the deposited data

Results flagged for a closer look

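The difference between the log2 changes with Adavivint in S100A9-overexpressing and in empty vector THP-1 cells passed edgeR's interaction test for 15 of the 47 genes. It was positive for NOP16 (0.76), MYBBP1A (0.65), NIP7 (0.65), RRS1 (0.63), DDX21 (0.51), PPAN (0.46), NOLC1 (0.46) and TCOF1 (0.45). It was also positive for LAS1L (0.44), NOP10 (0.44), POLR1A (0.43), BYSL (0.41) and UBTF (0.37), and negative for POLR1D (-0.33) and NOB1 (-0.30). Of these 15 genes 12 were called in each fit that left out 1 library. The other 3, POLR1A, PPAN and BYSL, were called in 5, 3 and 2 of 12 such fits.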

How the results depend on the processing

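No call of a member turned direction under the alternatives run. Of the 47 genes called with Adavivint in empty vector cells, 44 were called under each alternative, and of the 43 in overexpressing cells 40. In U937, 1 member (POLR1C) fell without empty vector library 2, and 3 rose and 18 fell without both libraries that stood apart. For overexpression before the drug, 1 member rose with only the 6 libraries of the contrast, and leaving out 1 library gave 1 to 2 higher and 17 to 35 lower. Of all genes, 4307 changed in the main fit and 2735 to 4983 when 1 library was left out. Under the drug, DESeq2 called 1 member lower and library totals 2, and the fit of only 6 libraries called 2 higher and 1 lower. The interaction called 10 to 26 members higher when 1 library was left out. It called 1885 to 3724 of all genes in those fits and 2968 in the main fit. Between the lines, DESeq2 called 4 members lower, the filter of 1 CPM in 3 libraries 1, the fit without U937 empty vector library 2 called 30, and leaving out 1 library gave 1 to 30. The cause was not tested. Over all genes, 231 changed with the knockdown, 877 by DESeq2, 3 with the replicate block, 18 to 362 without 1 library and 4296 without both that stood apart; under the drug 1309 differed between the vectors and 2025 by DESeq2 (502 at the lowest without 1 library). With the replicate number as a block, counts of higher and lower members were 0 and 0 for the knockdown, 2 and 25 for overexpression, 7 and 40 and 8 and 35 for the drug with empty vector and overexpression, 0 and 0 between the vectors under the drug, 12 and 2 for the interaction and 0 and 1 between the lines. Same-numbered replicates correlated at 0.0921, -0.345 and -0.287 in U937 and between -0.111 and 0.0701 in THP-1. Between U937 empty vector library 2 and shS100A9 library 3, which stood apart, the value was 0.353, the highest of the U937 pairs. No alternative varied depth.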
